A study of Mus musculus with 6 samples.

Results

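Respiratory complex I was examined as 44 subunit genes, 37 encoded in the nucleus and 7 in the mitochondrial genome, out of 22036 genes in the table. Members were the rows with a symbol beginning Nduf followed by a, b, c, s or v and a digit, or beginning mt-Nd, so that the assembly factors stayed out. Ndufab1, the acyl carrier subunit, has a symbol outside this rule and was not counted. The libraries came from skeletal muscle of PRR14-knockout mice collected 1 month after AAV (adeno-associated virus, used to deliver genes) was given. PRR14 is a protein known to tether heterochromatin to the nuclear lamina. In 3 libraries the virus carried MEF2C-GFP (called MEF2C here) and in 3 it carried GFP. MEF2C is a muscle transcription factor and GFP a fluorescent protein that serves as the control cargo. All 6 libraries carry the knockout (genotype KO) and a viral injection. The labels do not give the muscle, age, sex, promoter of the virus, or whether a library is 1 animal. The question here is how the subunit messenger RNAs compare with and without added MEF2C in this knockout muscle.

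Complex I is the entry point of the mitochondrial respiratory chain: it takes electrons from NADH, passes them along iron-sulphur clusters to ubiquinone, and pumps protons across the inner membrane. It is L-shaped, with a peripheral arm in the matrix made of the N module (NADH oxidation) and the Q module (quinone reduction), and a membrane arm, the P module, that pumps protons. Its conserved core is made by both genomes, since the catalytic core of the peripheral arm is nuclear and the core of the membrane arm is mitochondrial, while the supernumerary subunits around it are all nuclear. Oxidative muscle fibres are known to be richer in mitochondria than glycolytic fibres. The core comprised 14 members here, 7 nuclear and 7 mitochondrial, and 28 of the others were supernumerary subunits. The remaining 2, Ndufa4 and its paralogue Ndufa4l2, carry complex I names, although structural work places Ndufa4 in complex IV.

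Listed counts lay between 3370833 and 3900617 per library, and mitochondrially encoded genes took 3.61% to 4.87% of them. The fast-fibre markers, which check the labelled tissue, summed to between 138301 and 212157 CPM (read counts scaled to a common library total). As a check of the labels, Mef2c stood at 234, 196 and 371 normalised CPM across MEF2C replicates 1 to 3, against 223, 261 and 236 across GFP replicates 1 to 3. Replicate 3 of MEF2C alone exceeded the GFP libraries (log2 fold change 0.15 ± 0.22, SE; edgeR adjusted p = 0.993), so directions below are for the libraries labelled MEF2C. Prr14 stood at 4.84 to 7.77 CPM in MEF2C and at 3.26 to 3.98 in GFP, and with no wild-type library analysed here this checks no knockout.

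All 44 members passed the filter on low counts, and 0 of them were called at an adjusted p under 0.05 by edgeR's quasi-likelihood test, where 7 of the 9229 genes tested (0.0758%) were called. At an unadjusted p under 0.05 the count was also 0 of 44, against 5.71% of all genes tested (527 genes). DESeq2 called 0 members as well, against 0.293% of all genes tested. The smallest adjusted p of a member was 0.928 by edgeR. Each of the 44 fold changes had a 95% interval that included 0 on the log2 scale. The nuclear subunits had the narrower intervals, and over the 37 genes the bounds lay between -0.50 (Ndufb2) and 0.39 (Ndufa4l2), which is 0.706-fold to 1.31-fold. For the mt-Nd genes the bounds lay between -0.59 (mt-Nd3) and 0.81 (mt-Nd4l), or 0.662-fold to 1.75-fold. These intervals are per gene, with no adjustment for the number of genes. A small change shared by many subunits, below these bounds, was not detectable gene by gene with 3 libraries a group. In bulk tissue, fewer cells of a type and less RNA per cell cannot be told apart.

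**Figure D1:**
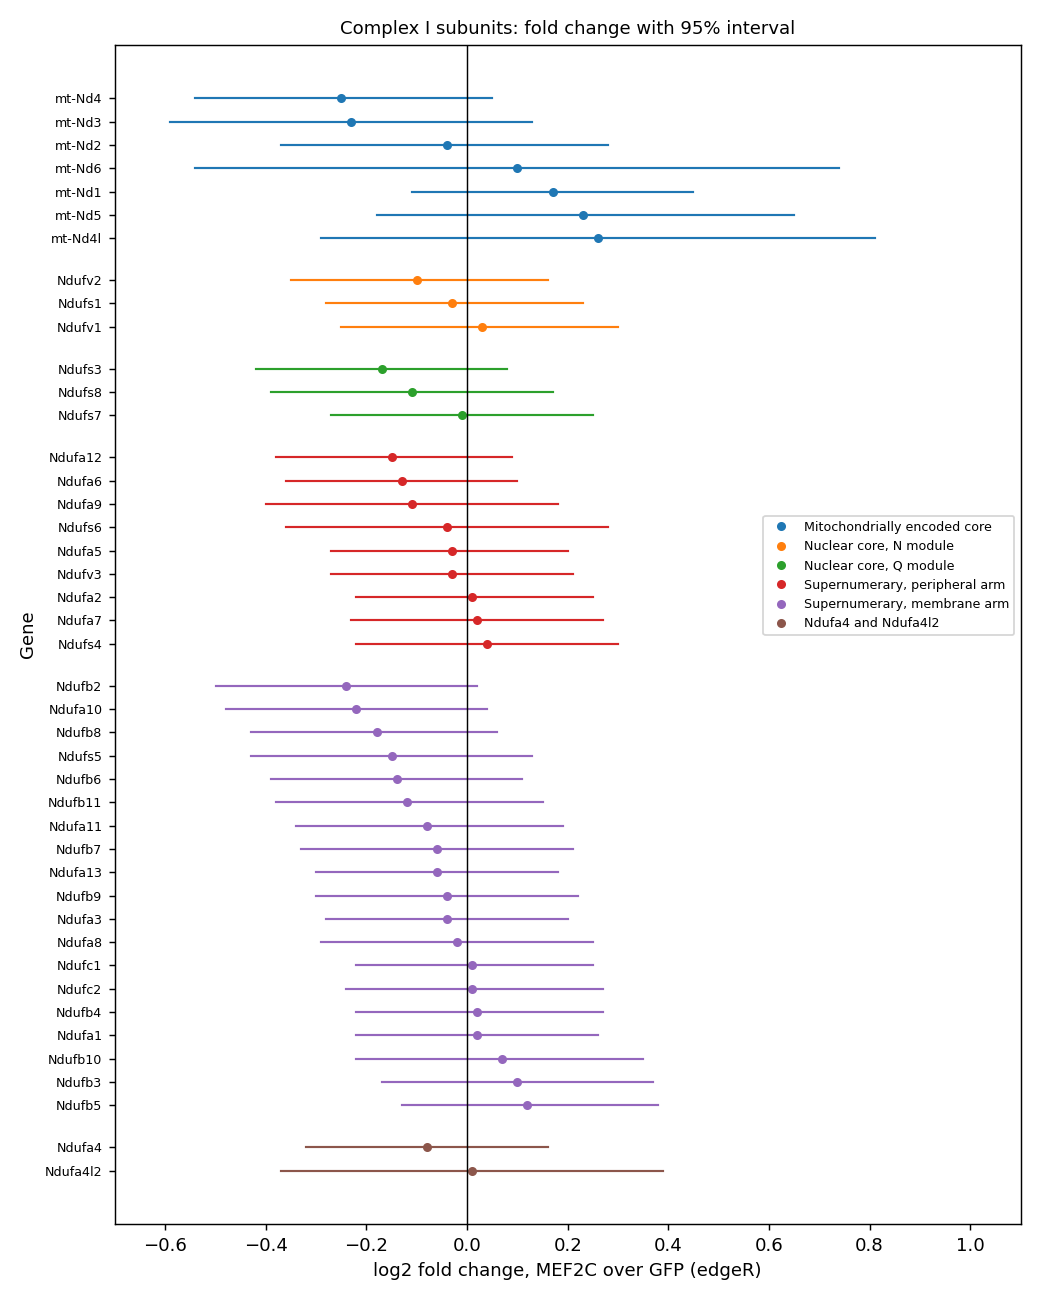
Log2 fold change of the subunit genes reported by name (MEF2C over GFP, edgeR), with points for the estimate, lines for the 95% interval and colours for the subunit class. Every interval shown crosses 0, and the mt-Nd genes spread further on both sides (-0.25 to 0.26) than the nuclear subunits (-0.24 to 0.12).

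The nuclear core subunits carry the flavin, the iron-sulphur clusters and much of the quinone pocket. Fitted values were below 0 for 6 of the 7 core genes and above 0 for 1, and their median was -0.10 on the log2 scale. In the N module, Ndufv1, which binds NADH and the flavin, stood at 655, 620 and 527 CPM across MEF2C replicates 1 to 3, against 517, 622 and 627 across GFP replicates 1 to 3. The lowest GFP library lay below every MEF2C library, the groups overlapped, and the log2 fold change was 0.03 ± 0.13 (SE; edgeR adjusted p = 0.993). Ndufs1, the largest core subunit of the peripheral arm, stood at 274, 252 and 251 CPM in MEF2C and at 251, 286 and 254 in GFP. The groups overlapped, at -0.03 ± 0.12 on the log2 scale. Ndufv2, an iron-sulphur subunit next to Ndufv1, stood at 1112, 1084 and 937 CPM against 1005, 1157 and 1185, with a log2 fold change of -0.10 ± 0.12.

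In the Q module all 4 core genes had a negative log2 fold change, with a median of -0.11 and none past the test. Ndufs3 (GRCm38 chromosome 2, 90894634 to 90904827, minus strand), a subunit at the junction of the N and Q modules, stood at 337, 333 and 326 CPM across MEF2C replicates 1 to 3, against 346, 376 and 398 across GFP replicates 1 to 3. The MEF2C libraries were all below the GFP libraries, by little, and the log2 fold change was -0.17 ± 0.12 (SE; edgeR adjusted p = 0.951). Ndufs7, which holds the last iron-sulphur cluster before the quinone, stood at 729, 690 and 604 CPM against 614, 694 and 728. Ndufs8, another iron-sulphur subunit, stood at 546, 498 and 423 CPM against 473, 533 and 578. Both overlapped between the groups, with log2 fold changes of -0.01 ± 0.12 and -0.11 ± 0.13.

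The supernumerary subunits stabilise the complex and guide its assembly. Among the 28, the log2 fold change was below 0 for 18 and above 0 for 10. The median was -0.04 and covers 9 genes of the peripheral arm (median -0.03) and 19 of the membrane arm (median -0.04). The most negative value of all nuclear members belonged to Ndufb2 (chromosome 6, 39592574 to 39603382, plus strand), a small subunit of the membrane arm. It stood at 432, 439 and 361 CPM across MEF2C replicates 1 to 3, against 450, 491 and 513 across GFP replicates 1 to 3. The groups did not overlap, and the log2 fold change was -0.24 ± 0.12 (SE; edgeR adjusted p = 0.928). Ndufa10, a membrane-arm subunit with a nucleoside-kinase fold, stood at 438, 413 and 379 CPM against 428, 495 and 511, with a log2 fold change of -0.22 ± 0.12. Ndufb8, a membrane-arm subunit often used as an indicator of assembled complex I, stood at 701, 750 and 676 CPM against 746, 823 and 844, with a log2 fold change of -0.18 ± 0.11. In both, a single MEF2C library reached above the lowest GFP library, GFP replicate 1.

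At the positive end were Ndufb5, Ndufb3 and Ndufb10, all of the membrane arm, and Ndufs4, a peripheral-arm subunit whose loss in mice gives a form of Leigh syndrome. Ndufb5 stood at 1232, 1189 and 1107 CPM in MEF2C and at 950, 1169 and 1121 in GFP, a log2 fold change of 0.12 ± 0.12. GFP replicate 1 was the lowest library of the 6, and the other GFP libraries lay among the MEF2C libraries. Ndufb10 stood at 1207, 1178 and 884 CPM against 957, 1071 and 1090, so that MEF2C replicates 1 and 2 were above and replicate 3 below all GFP libraries. Ndufb3 followed the same order of MEF2C libraries, at 559, 525 and 431 CPM against 446, 468 and 501, and Ndufs4 stood at 435, 440 and 363 CPM against 377, 417 and 412. The log2 fold changes of these last 3 were 0.07 ± 0.13, 0.10 ± 0.13 and 0.04 ± 0.12.

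Groups without overlap were seen for 3 of the 44 members, all lower in MEF2C, against 5.33% of all genes tested in that direction and 11.1% in either. They were Ndufb2, Ndufs3 and Ndufa6, the last named after its values were seen. Ndufa6, a peripheral-arm subunit, stood at 1174, 1153 and 1076 CPM in MEF2C and at 1228, 1212 and 1284 in GFP. The count of 3 in 44 is close to the background share in either direction, and 0 members were higher without overlap (5.75% of all genes tested).

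Ndufa4 was the most abundant nuclear member, at 2864, 2861 and 2479 CPM across MEF2C replicates 1 to 3, against 2775, 2969 and 2912 across GFP replicates 1 to 3. Ndufa4l2, known as a hypoxia-induced paralogue, was the least abundant, at 26.7, 30.4 and 37.8 CPM against 35.9, 29.7 and 28.9. Their groups overlapped, with log2 fold changes of -0.08 ± 0.11 and 0.01 ± 0.18. Divided by the length of the principal transcript, Ndufa4 stood at 6217 CPM per kilobase over the 6 libraries and Ndufa4l2 at 33.8. On the same scale the nuclear core subunits had a median of 358 CPM per kilobase (Ndufs1 the lowest at 101, Ndufs7 the highest at 893), and the supernumerary subunits a median of 1014 (from 196 for Ndufa9 to 4868 for Ndufc1). Core transcripts are longer, with a median of 1623 bases against 694, and the protocol enriches full-length cDNA, so that division by length itself lowers long transcripts. Ndufb4 carries the second symbol Ndufb4c in the table, the name of a near-identical copy, and its 1059 ± 70.0 CPM in MEF2C and 1041 ± 67.1 in GFP (SD, n = 3 per group) are uncertain between them.

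Promoters of nuclear respiratory genes are known to carry sites for NRF1, for ETS factors such as GABPA, and for YY1. Windows from 250 bases before to 50 after the start were matched by symbol for 32 of the 37 nuclear members (RefSeq, GRCm38.p6), and 5 had no window. On both strands, the NRF1 motif with any base in the middle occurred in 7 of the 32 (21.9%), namely Ndufa5, Ndufa6, Ndufa8, Ndufa11, Ndufb4, Ndufs5 and Ndufs6, against 5.19% of 27025 symbols with a window. The YY1-type letters AAGATGGCG occurred in 5 (15.6%), namely Ndufa9, Ndufc1, Ndufs4, Ndufs6 and Ndufs7, against 1.64% of all. The ETS-type letters CCGGAAGT occurred in Ndufs3 alone (3.12%), against 4.31% of all. A pair of forms of the MEF2 motif occurred in 0 of the 32, and in 0.122% and 0.181% of all symbols. The window of Ndufs6 held both the NRF1 and the YY1 motif, and any of the NRF1, ETS and YY1 motifs occurred in 12 windows (37.5%, against 10.3% of all). A match is a description of letters. The following stretches, all before the start, show the NRF1 match in capitals. In GENCODE the Ndufs5 and Ndufb4 stretches lie outside annotated genes, and the Ndufa11 stretch lies within Vmac on the opposite strand, in an intron but for up to 9 bases of a UTR exon at its edge. They are shown because they hold the motif with a different variable base each.
Ndufa11 (chr17:56717677-56717736, plus strand): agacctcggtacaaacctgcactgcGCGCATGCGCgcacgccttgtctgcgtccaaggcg
Ndufs5 (chr4:123718250-123718309, minus strand): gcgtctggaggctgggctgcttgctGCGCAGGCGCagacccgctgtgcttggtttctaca
Ndufb4 (chr16:37654525-37654584, minus strand): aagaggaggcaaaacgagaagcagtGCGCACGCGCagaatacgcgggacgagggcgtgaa
The match in Ndufa11 is the full NRF1 palindrome, which is one case of the motif with any middle base and occurred in 1 of the 32 windows (3.12%) and in 1.07% of all. The matches in Ndufs5 and Ndufb4 fit the motif on the other strand.

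The 7 mt-Nd genes encode the proton-pumping core of the membrane arm and are transcribed as parts of long precursor RNAs of the mitochondrial genome, mt-Nd6 from one strand and the other 6 from the opposite strand. On chromosome M of GRCm38, mt-Nd1 lies at 2751 to 3707, mt-Nd2 at 3914 to 4951, mt-Nd3 at 9459 to 9806, mt-Nd4l at 9877 to 10173, mt-Nd4 at 10167 to 11544 and mt-Nd5 at 11742 to 13565 on the plus strand, and mt-Nd6 at 13552 to 14070 on the minus strand. Neighbouring genes share bases in 2 places, which bears on how reads are assigned. The last 7 bases of mt-Nd4l are the first 7 of mt-Nd4, in capitals here.
mt-Nd4l end (chrM:10150-10173, plus strand): aatctcaacctactacaATGCTAA
mt-Nd4 start (chrM:10167-10190, plus strand): ATGCTAAaaattattcttccctca
The 3′ ends of mt-Nd5 and mt-Nd6 share 14 bases on opposite strands, in capitals in the next pair.
mt-Nd5 end (chrM:13542-13565, plus strand): ttatactcaaTTAATCTCGAGTAA
mt-Nd6 end (chrM:13552-13575, minus strand): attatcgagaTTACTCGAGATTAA
mt-Nd4l and mt-Nd4 are known to be carried on a common messenger, so that reads of mt-Nd4l and mt-Nd4 are uncertain between them. Whether the counting used strand is not given in the sources used here, and reads of mt-Nd5 and mt-Nd6 may likewise be shared.

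Read levels of the mt-Nd genes, mt-Nd6 among them, spanned a wide range in every library. How evenly the protocol captures each messenger was not tested, so these levels compare reads. mt-Nd1 was the most abundant member of complex I, at 13510, 10627 and 14611 CPM across MEF2C replicates 1 to 3, against 11225, 10585 and 12637 across GFP replicates 1 to 3. MEF2C replicates 1 and 3 were above all GFP libraries and replicate 2 was among them, with a log2 fold change of 0.17 ± 0.13 (SE; edgeR adjusted p = 0.976). mt-Nd4 came next, at 6359, 4514 and 6384 CPM against 6674, 6342 and 7446. Here MEF2C replicate 2 was well below the rest and the other MEF2C libraries lay just above the lowest GFP library, and the log2 fold change was -0.25 ± 0.14 (edgeR adjusted p = 0.928). Together mt-Nd1 and mt-Nd4 made up 82.7% to 84.7% of the mt-Nd reads of a library.

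mt-Nd2 stood at 2673, 1917 and 2350 CPM in MEF2C and at 2131, 2142 and 2879 in GFP, with a log2 fold change of -0.04 ± 0.15. mt-Nd3 stood at 518, 347 and 476 CPM against 535, 430 and 611, and mt-Nd5 at 730, 546 and 863 against 724, 482 and 617. These 2 differed in sign, at -0.23 ± 0.17 and 0.23 ± 0.19, and both overlapped. mt-Nd6, the gene on the minus strand, stood at 80.3, 62.3 and 89.5 CPM against 98.4, 44.3 and 73.7, with a log2 fold change of 0.10 ± 0.28. mt-Nd4l was the lowest, at 19.7, 11.5 and 19.8 CPM against 16.3, 10.2 and 15.9, with a log2 fold change of 0.26 ± 0.26. This is 76, 46 and 82 reads in MEF2C and 55, 32 and 60 in GFP. mt-Nd4 had 322 to 621 times as many reads. Reads of their common messenger are uncertain between them, so the mt-Nd4l values count assigned reads and may not show its level. Per kilobase of transcript, the order over the 6 libraries was mt-Nd1 at 12747 CPM, mt-Nd4 at 4562, mt-Nd2 at 2263, mt-Nd3 at 1398, mt-Nd5 at 362, mt-Nd6 at 144 and mt-Nd4l at 52.4. Division by length itself lowers long transcripts here too, and it set mt-Nd3 (348 bases) above mt-Nd5 (1824 bases). Before division mt-Nd5 had the higher mean, at 713 against 447 CPM in MEF2C and 608 against 525 in GFP. The CPM ranges of mt-Nd3 and mt-Nd5 overlapped across libraries, and those of the other genes did not overlap with any neighbour in level.

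**Figure D2:**
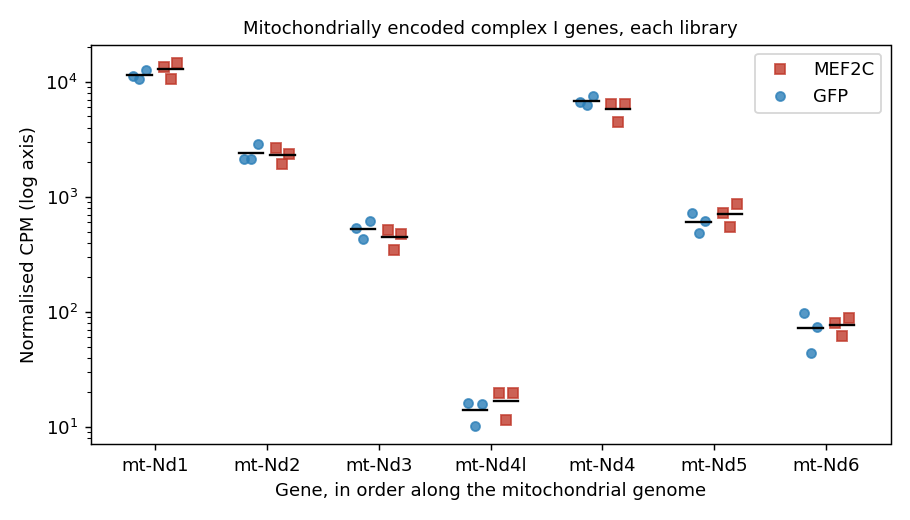
Normalised CPM (log axis) of the 7 mt-Nd genes in order along the mitochondrial genome, with circles for GFP libraries, squares for MEF2C libraries and bars for group means. Values run from 10.2 CPM for mt-Nd4l to 14611 for mt-Nd1, and the groups overlap at every gene.

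Summed over the subunits, nuclear and mitochondrial complex I reads were of like size. The 37 nuclear genes summed to 32324, 32182 and 28252 CPM across MEF2C replicates 1 to 3, against 30370, 32646 and 32738 across GFP replicates 1 to 3. The 7 mt-Nd genes summed to 23890, 18025 and 24794 CPM against 21402, 20035 and 24280. Their ratio, which does not depend on the normalisation, was 0.739, 0.560 and 0.878 in MEF2C and 0.705, 0.614 and 0.742 in GFP. The highest and the lowest ratio were both MEF2C libraries, the groups overlapped, and the mean log2 ratio differed by 0.06. Without MEF2C replicate 3 that difference was -0.09, without GFP replicate 2 it was -0.02, and without MEF2C replicate 2 it was 0.23. The median log2 fold change was -0.04 for the nuclear genes, of which 25 of 37 were negative (47.8% of all genes tested were), and 0.10 for the mt-Nd genes, of which 3 of 7 were. With library totals in place of TMM the nuclear median turned to 0.09 and 8 of 37 were negative, while the median over all tested genes went from 0.01 to 0.14. Relative to the median of all genes, the nuclear median was -0.05 under both scalings, and the mt-Nd median was 0.09 and 0.07. Without MEF2C replicate 3 the nuclear and mt-Nd medians were 0.01 and -0.02, and without GFP replicate 2 the mt-Nd median was -0.12.

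The 2 sets ordered the libraries differently. MEF2C replicate 3 was the lowest library of its group for 33 of the 37 nuclear subunits (89.2%), where it was the lowest for 36.0% of all genes tested, and it was the highest of its group for 5 of the 7 mt-Nd genes. MEF2C replicate 2 was the lowest of its group for all 7 mt-Nd genes and for 0 nuclear subunits. In the GFP group, replicate 1 was the lowest for 27 nuclear subunits (73.0%, against 35.6% of all genes), and replicate 2 was the lowest for 6 of the 7 mt-Nd genes and for 6 nuclear subunits. Under library totals MEF2C replicate 3 was still the lowest for 28 nuclear subunits (75.7%, against 28.3% of all genes), and MEF2C replicate 2 and GFP replicate 2 for 7 of 7 mt-Nd genes each. In the GFP group the shares over all genes moved with this scaling too: replicate 2 was then the lowest for 20 nuclear subunits (54.1%), near its 47.8% of all genes, and replicate 1 for 15 (40.5%), against 25.8% of all genes. As a median over the nuclear subunits, MEF2C replicate 3 lay at -0.18 on the log2 scale relative to the mean of the GFP libraries, and MEF2C replicates 1 and 2 at 0.04 and 0.01. Over the mt-Nd genes the same medians were 0.23, -0.27 and 0.35 for MEF2C replicates 1, 2 and 3. GFP replicates 1, 2 and 3 lay at -0.09, 0.05 and 0.05 for the nuclear subunits. For the mt-Nd genes they lay at 0.04, -0.27 and 0.14, so GFP replicate 2 was as low as MEF2C replicate 2. The spread between the MEF2C libraries was wider than the difference between the groups in both sets. MEF2C replicate 3 was also the library with the highest Mef2c and with fewer slow-fibre reads than the other MEF2C libraries, and the part of either in these levels was not tested.

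**Figure D3:**
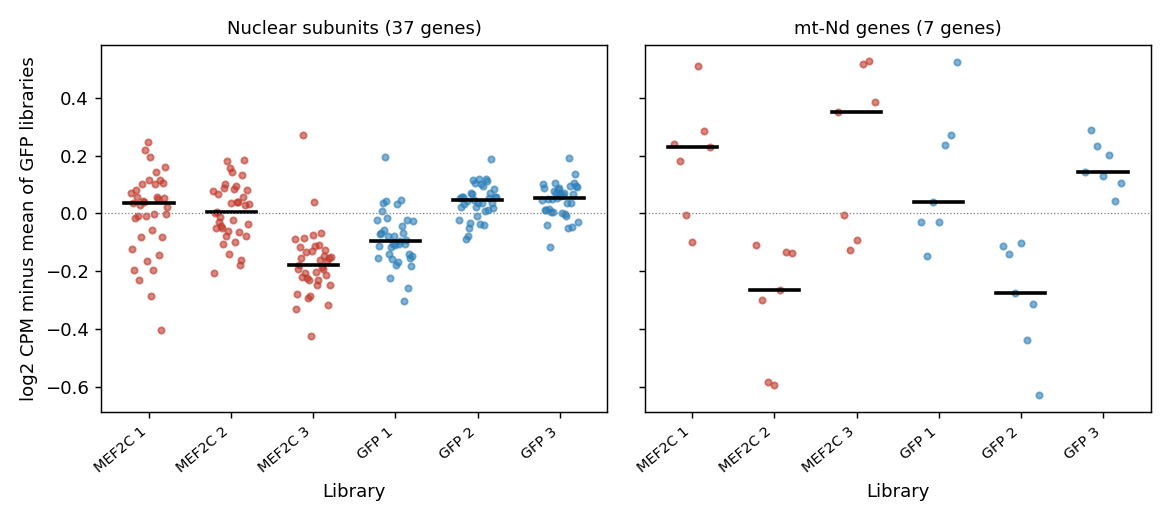
Log2 CPM of each gene minus its mean over the GFP libraries, by library, with 1 point per gene and a bar for the median over genes. Nuclear subunits sit lowest in MEF2C replicate 3 (median -0.18), where the mt-Nd genes sit highest (median 0.35).

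Ratios between mt-Nd genes within a library need no normalisation. Of the 21 such ratios 6 (28.6%) had groups that did not overlap. The share was 21.6% for the 63546 ratios between genes with at least 1000 counts in every library. For the levels of all genes tested it was 11.1%. mt-Nd4l and mt-Nd6 had fewer than 1000 counts in every library, so the 28.6% and the 21.6% do not come from genes of like counts. Ratios that share a gene are not independent, so the 6 are not 6 separate observations. mt-Nd1 outnumbered mt-Nd4 by 2.12, 2.35 and 2.29 to 1 across MEF2C replicates 1 to 3, against 1.68, 1.67 and 1.70 to 1 across GFP replicates 1 to 3. The mean was 2.26 ± 0.118 in MEF2C and 1.68 ± 0.0140 in GFP (SD, n = 3 per group), a difference of 0.42 on the log2 scale and larger than the spread within either group. It lay between 0.39 and 0.46 when any library was left out. That range is no separate support, since it comes from the values that singled the ratio out. This ratio was singled out after the values were seen, and an exact permutation test (two-sided) returned p = 0.1, the smallest that 3 libraries against 3 allow (Benjamini-Hochberg adjusted over the 21 mt-Nd ratios, 0.35). Any ratio with groups that do not overlap returns the same p. A ratio shows unequal levels, not which of the genes differed.

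Among 666 ratios between nuclear subunits, 19.7% had groups that did not overlap. These shares come from genes of unlike counts, and whether the mt-Nd genes stand apart as a set was not tested. The 6 mt-Nd ratios were those of mt-Nd1, mt-Nd4l and mt-Nd5 to mt-Nd3 and mt-Nd4. In each case the first 3 genes were higher in MEF2C relative to mt-Nd3 and mt-Nd4, while the level of every mt-Nd gene overlapped between the groups. mt-Nd4 outnumbered mt-Nd5 by 8.71, 8.27 and 7.39 to 1 across MEF2C replicates 1 to 3, against 9.22, 13.1 and 12.1 to 1 across GFP replicates 1 to 3. mt-Nd1 outnumbered mt-Nd3 by 26.1, 30.6 and 30.7 to 1 in MEF2C and by 21.0, 24.6 and 20.7 to 1 in GFP. The ratio of mt-Nd3 to mt-Nd4 overlapped between the groups, with 0.0777 ± 0.00352 in MEF2C and 0.0767 ± 0.00773 in GFP (SD, n = 3 per group). So did that of mt-Nd5 to mt-Nd6, at 9.16 ± 0.445 and 8.87 ± 1.81. The ratios to mt-Nd4l rest on 32 to 82 reads assigned to that gene a library.

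**Figure D4:**
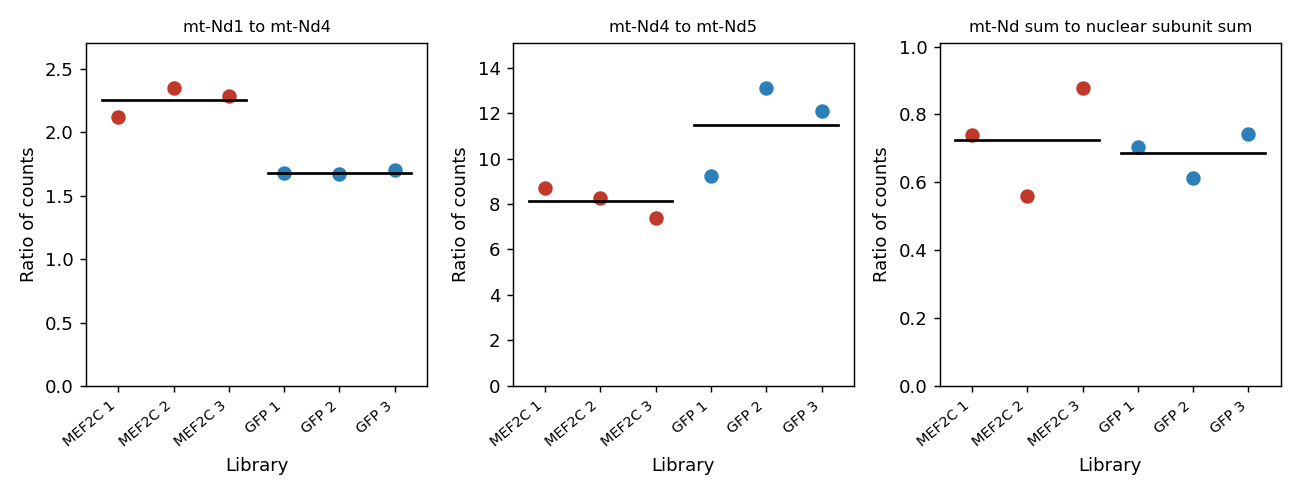
Ratio of read counts in each library for mt-Nd1 to mt-Nd4, mt-Nd4 to mt-Nd5 and the mt-Nd sum to the nuclear subunit sum, with bars for group means. The first ratio is 2.12 to 2.35 in MEF2C and 1.67 to 1.70 in GFP, while the third overlaps between the groups.

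The other mitochondrially encoded subunits share precursor RNAs with the mt-Nd genes except mt-Nd6. The list of these other subunits held 6 genes. It had 2 positive and 4 negative log2 fold changes with a median of -0.06, and 0 were called. mt-Co1, the catalytic subunit of complex IV, stood at 7713, 7543 and 6519 CPM across MEF2C replicates 1 to 3, against 6354, 4756 and 3896 across GFP replicates 1 to 3, above every GFP library in each case. Its log2 fold change was 0.54 ± 0.16 (SE; edgeR adjusted p = 0.662). It had the smallest unadjusted p of this list, and 5.75% of all genes tested were higher in MEF2C without overlap. mt-Cytb of complex III and mt-Co3 of complex IV had log2 fold changes of -0.26 ± 0.15 and -0.22 ± 0.13. The ratio of mt-Co1 to mt-Nd4 was 1.21, 1.67 and 1.02 in MEF2C and 0.952, 0.750 and 0.523 in GFP. Over all 78 ratios between the 13 mitochondrially encoded genes, 14 (17.9%) had groups that did not overlap.

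Assembly factors, which build complex I without staying in it, numbered 19 in the list and 18 in the test. The log2 fold change was above 0 for 10 and below 0 for 8, the median was 0.03, and 0 were called. Coa1 of that list had no row in the table. Ndufaf5, which hydroxylates Ndufs7 during assembly, stood at 103, 126 and 104 CPM in MEF2C and at 167, 149 and 124 in GFP, with a log2 fold change of -0.40 ± 0.15 (SE; edgeR adjusted p = 0.803). Lyrm2 and Ndufaf3 had log2 fold changes of 0.36 ± 0.18 and 0.22 ± 0.14. Genes of mitochondrial transcription and biogenesis split evenly, with 12 positive and 12 negative among 24 tested of 25, a median of -0.02 and 0 called. Ppargc1a, the coactivator known for driving mitochondrial biogenesis, stood at 21.2, 26.6 and 18.9 CPM against 31.4, 27.4 and 27.3, without overlap, and differed by -0.37 ± 0.18 on the log2 scale (edgeR adjusted p = 0.904). Lrpprc, which stabilises mitochondrial messenger RNAs, stood at 13.7, 13.2 and 19.8 CPM against 11.6, 7.66 and 10.6, without overlap and with a difference of 0.64 ± 0.24 on the log2 scale (edgeR adjusted p = 0.808). Esrrg, a nuclear receptor of oxidative muscle, stood at 7.25, 7.22 and 3.87 CPM against 2.96, 2.23 and 3.71. Its groups were apart only by 3.87 against 3.71 CPM, and the difference was 1.02 ± 0.36 on the log2 scale (edgeR adjusted p = 0.766). Ppargc1a, Lrpprc and Esrrg were named because they had the smallest unadjusted p of their list. Groups without overlap were seen for 11.1% of all genes tested.

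Markers of fibre types and of other cells had wider spreads between libraries than the nuclear subunit sum, which ran from 28252 to 32738 CPM. Slow-fibre genes, with 10 of 10 positive and 0 called, summed to 1903, 1953 and 479 CPM across MEF2C replicates 1 to 3, against 280, 268 and 376 across GFP replicates 1 to 3. Fast-fibre genes, with 11 of 11 negative and 3 called lower by edgeR, summed to between 138301 and 144759 CPM in MEF2C and between 184969 and 212157 in GFP. Granulocyte genes summed to 1270 CPM in MEF2C replicate 1, 79.5 in GFP replicate 3 and 3.83 to 7.72 in the other 4 libraries, and bone genes, of which 1 of 8 (Sp7) was at 0 throughout, to 460, 138 and 32.4 CPM in MEF2C and 33.2 to 57.2 in GFP. Red cell genes summed to 4393 to 8631 CPM in MEF2C and 3080 to 4166 in GFP, fat genes to 910 to 1928 and 810 to 1092, and smooth muscle genes to 524 to 643 and 404 to 512. The part of these cells in the subunit levels was not tested. Without MEF2C replicate 1, which held the granulocyte reads, the nuclear and mt-Nd medians were -0.07 and 0.07, and 0 members were called.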

How the data were processed

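Counts per gene were analysed for 6 Oxford Nanopore PCR-cDNA libraries (per the labels' protocols, 1 µg of total RNA and 14 PCR cycles, with reverse transcription that enriches full-length cDNA). The deposited table gives read counts per gene and CPM, per the file headers. The counts were used as deposited. The deposited CPM served to recover library totals, of which the listed counts are 95.6% to 96.4%. The submitters' processing notes name minimap2, DESeq2 1.6.3 and GRCm38, without roles. For the counter, annotation, strand and nuclear copies of mitochondrial sequence, the setting is not given in the sources used here. The table's 30 rows naming no gene held 0 counts and were left out. PCR reads carry no molecular identifiers, so intervals cover the spread between these samples only, which may be technical, since the labels name no separate animals. Replicates differed beyond counting noise (chi-square per degree of freedom 5.65 to 11.7).

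edgeR 4.0.16 (R 4.3.3) was fitted on the whole table (quasi-likelihood test, robust), after its filter by group (9229 genes) and TMM, with Benjamini-Hochberg adjustment over all tested genes and a threshold of 0.05. Standard errors came from the F statistic, and intervals are at 95%. Normalised CPM use TMM-scaled totals of the listed counts. Coordinates and lengths (the shortest APPRIS principal transcript) are from GENCODE vM21, where 44 of 44 members matched. Promoter windows are from RefSeq. Members and lists were chosen with earlier results of these data known, so list medians and counts are descriptions with no test. The rule for named genes took all mt-Nd genes, the nuclear core, and the 4 most positive and 4 most negative nuclear members. It also took Ndufa4, Ndufa4l2, Mef2c and Prr14, and up to 3 genes of each supporting list, those with the smallest unadjusted p. The values of 1 member are not reported here, and it enters counts, medians and sums only. Alternatives used DESeq2 1.42.0, limma 3.58.1 (voom), other scalings and filters, a replicate block and leaving out each library. Of the ratios, only that of the mt-Nd sum to the nuclear sum was among the planned results, and none between single genes was. The ratio of mt-Nd1 to mt-Nd4 and its checks, and the library order under library totals, were added after seeing the data. The edgeR, DESeq2 and voom fits were tested on simulated data with a single dispersion and changes larger than any member showed. That test does not bear on small changes.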

Additional observations from a re-analysis of the deposited data

How the results depend on the processing

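No complex I subunit was called under any of the 16 alternative fits (edgeR with other scalings, filters or dispersion, DESeq2, limma-voom, the replicate block, and each library left out). Between 0 and 2 of the 44 members had an unadjusted p under 0.05 in each. Of 704 member values under these alternatives, 33 moved by more than 1 SE and 68 changed sign. The nuclear median moved beyond its spread between libraries only with library totals, to 0.09. The count of all genes called, 7 in the reported fit, was 4 with library sizes without the 50 most abundant genes, 35 with no low-count filter, 3 with the strict filter (at least 1 CPM in 3 libraries and a mean of 20 counts), 27 with DESeq2, 3 with limma-voom, 0 with non-robust dispersion (557 at an unadjusted p under 0.05) and 0 to 22 when a library was left out (3, 1 and 22 without MEF2C replicate 1, 2 or 3, and 2, 2 and 0 without GFP replicate 1, 2 or 3). Leaving out a library gave nuclear medians of -0.10 to 0.01 and mt-Nd medians of -0.12 to 0.23. Whether the library numbers pair the samples is not given in the sources used here. Same-numbered libraries correlated in their deviations at -0.24, 0.05 and -0.26, and no library correlated best with its own number. Deviations from a mean of 3 libraries are tied to each other, so these correlations do not settle pairing. With the replicate block 2 genes and 0 members were called, and the nuclear and mt-Nd medians were -0.04 and 0.15. Low counts, and reads uncertain between it and mt-Nd4, limit mt-Nd4l, and 3 libraries a group limit all members.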
